A study of Homo sapiens with 16 samples.

Results

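The DNA glycosylase genes were followed through RNA-Seq of human melanoma cells treated with corin, a small molecule that blocks both the demethylase LSD1 and the histone deacetylases of the CoREST corepressor complex. The 10 genes were taken by symbol (UNG, SMUG1, TDG, MBD4, OGG1, MUTYH, NTHL1, NEIL1, NEIL2 and NEIL3) and not by their response, and all 10 were found among the 34228 genes of the count table. The cells were 451Lu-R and 1205Lu-R, derivatives of the lines 451Lu and 1205Lu that had been made resistant to BRAF inhibition (BRAFi) by culture in rising doses of PLX4032 (vemurafenib) and were kept in 5 μM of it. Each line received 2.5 μM corin or the vehicle DMSO for 24 hours, with 2 libraries per group and 8 libraries in all. These treatments did not include PLX4032, and the paper's methods do not say whether the culture dose was withdrawn for them. The other 8 libraries of the study, which received 5 μM PLX4032 with or without corin, were not analysed here because their tables held comparisons between groups and no values per library. All 4 groups were thus BRAFi-resistant, and each cell line stands for 1 resistant derivative.

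DNA glycosylases start base excision repair. Each recognises a damaged or misplaced base, flips it out of the helix and cuts the bond to the sugar, which leaves an abasic site for an endonuclease, a polymerase and a ligase to repair. UNG and SMUG1 remove uracil, TDG and MBD4 remove thymine or uracil that faces guanine (TDG also removes oxidised forms of 5-methylcytosine), OGG1 removes 8-oxoguanine and MUTYH removes the adenine that was paired with it, and NTHL1 and the NEIL enzymes remove oxidised bases. UNG and NEIL3 are known for higher expression in dividing cells.

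The 8 libraries held between 9516563 and 11797686 estimated counts, and replicates of a group differed by little more than counting error (chi-square per degree of freedom 1.34 to 1.41). The labels do not say whether replicates were separate cultures, so p-values measure the spread between these libraries only. Melanocytic markers separated the lines as labelled by the study: all 8 were lower in 1205Lu-R with DMSO, and their summed level was 13312 and 13325 CPM (counts scaled to library size) in the 451Lu-R DMSO libraries against 8.64 and 8.96 CPM in those of 1205Lu-R, where SOX10 and TYR were at 0 CPM. The 4 markers of undifferentiated melanoma (AXL, NGFR, EGFR and WNT5A) summed to 7.78 to 7.83 CPM in 451Lu-R DMSO libraries and to 1305 to 1320 CPM in 1205Lu-R. These lists also moved with corin: the melanocytic sum was 12050 to 12076 CPM in treated 451Lu-R and 22.2 to 25.5 CPM in treated 1205Lu-R. Of the 8 melanocytic genes, 7 fell in 451Lu-R, among them SOX10 (log2 fold change -1.60), MITF (-1.37) and MLANA (-0.70), and DCT rose (0.78). The 3 with enough counts in 1205Lu-R all rose. The undifferentiated sum was 380 to 391 CPM in treated 451Lu-R, where all 4 genes rose and NGFR alone reached 362 CPM, and 769 to 781 CPM in treated 1205Lu-R, where NGFR rose from 6.11 to 194 CPM and AXL, EGFR and WNT5A fell. The sum of fibroblast, endothelial and blood cell markers, nearly all of it PDGFRA, went from 4.02 to 4.12 CPM up to 8.31 to 8.66 CPM in treated 451Lu-R, and from 213 to 215 CPM down to 94.2 to 99.5 CPM in treated 1205Lu-R. The blood cell gene PTPRC had at most 3 counts in a library. Whether these shifts had a part in the values of the glycosylase genes was not tested.

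UNG and OGG1 were lower with corin in both lines and NEIL3 moved in opposite directions, so the 200 bases before the start of these 3 genes are shown. They are from RefSeq on GRCh38.p14, 5′ to 3′ on the strand of the gene, and lie at chr12:109097397-109097596 (+) for UNG, chr3:9749752-9749951 (+) for OGG1 and chr4:177309674-177309873 (+) for NEIL3. Capitals mark TTGGCGC or TTCCCGC, the core letters of sites of the E2F cell cycle factors, and CATGCGC, core letters of sites of the factor NRF1, on either strand.
UNG: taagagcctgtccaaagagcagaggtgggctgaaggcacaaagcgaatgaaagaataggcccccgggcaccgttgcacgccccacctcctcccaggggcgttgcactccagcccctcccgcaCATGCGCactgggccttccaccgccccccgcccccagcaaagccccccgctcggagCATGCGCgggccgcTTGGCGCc
OGG1: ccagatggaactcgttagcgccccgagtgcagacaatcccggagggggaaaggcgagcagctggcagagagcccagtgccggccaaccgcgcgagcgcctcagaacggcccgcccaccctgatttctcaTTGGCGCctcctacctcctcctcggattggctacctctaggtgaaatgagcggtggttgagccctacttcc
NEIL3: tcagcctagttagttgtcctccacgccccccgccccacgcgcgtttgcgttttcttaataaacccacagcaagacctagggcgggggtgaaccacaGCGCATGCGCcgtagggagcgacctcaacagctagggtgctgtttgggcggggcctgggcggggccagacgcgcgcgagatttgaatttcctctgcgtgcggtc
The UNG window held CATGCGC from 78 to 72 and from 22 to 16 bases before the start and TTGGCGC from 8 to 2 bases before it. The OGG1 window held TTGGCGC from 71 to 65 bases before the start, and in NEIL3 the letters CATGCGC overlapped on both strands, from 104 to 98 and from 101 to 95 bases before the start. These 2 cores were chosen after the sequences had been seen. Of the 10 genes, 8 had a window (SMUG1 and NEIL2 had none in the table), and the E2F core was in the windows of UNG, TDG and OGG1 against 6.68% of all 27305 windows of this length, and the NRF1 core in those of UNG and NEIL3 against 3.58%. The longer E2F letters TTTCCCGC or TTTGGCGC, which contain these cores, were in 0 of 8 windows and in 1.63% of all. The CCAAT box was in the windows of TDG, MBD4, OGG1 and MUTYH (28.9% of all), the SP1 letters GGGCGG in those of UNG, MBD4, OGG1, NTHL1 and NEIL3 (39.9%), the E-box CACGTG in those of TDG and NTHL1 (5.62%), and TTTGAA, core letters of the CHR element of cell cycle genes, in that of NEIL3 alone (10.5%).

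With DMSO, most of these genes were called different between the lines, as were most of all genes tested. Of the 9 genes with enough counts to be tested, 5 were higher in 1205Lu-R than in 451Lu-R (UNG, NEIL2, MBD4, NEIL3 and OGG1) and 3 were lower (SMUG1, MUTYH and TDG) at an adjusted p under 0.05, where 38.2% of all genes tested were higher and 37.2% lower. Differences were tested with the quasi-likelihood test of edgeR, adjusted over all genes tested (edgeR adjusted p), and CPM values were scaled with TMM factors. In bulk RNA, fewer cells that express a gene and less RNA per cell cannot be told apart. UNG was at 38.5 and 42.5 CPM in 451Lu-R and at 77.0 and 78.0 CPM in 1205Lu-R, a log2 difference of 0.96 ± 0.07 (SE, edgeR adjusted p = 1.20e-11). NEIL2 stood at 18.8 and 19.1 CPM against 32.2 and 33.4 CPM (log2 difference 0.81, edgeR adjusted p = 1.45e-08). SMUG1 went the other way, with 19.4 and 19.9 CPM in 451Lu-R and 6.32 and 8.35 CPM in 1205Lu-R (log2 difference -1.40, edgeR adjusted p = 6.79e-09), as did MUTYH, with 14.0 and 15.2 against 5.80 and 6.13 CPM (-1.27, edgeR adjusted p = 5.34e-08). In none of these 4 genes did the libraries of the lines overlap. With 2 libraries a group, a lack of overlap says little. NTHL1 and MUTYH showed it for corin in 1205Lu-R without being called, and its share over all genes was not counted. TDG was lower (log2 difference -0.68, edgeR adjusted p = 5.37e-06) and MBD4 higher (0.51, edgeR adjusted p = 2.85e-05) in 1205Lu-R. NTHL1 differed by a log2 value of -0.04 with an interval of -0.25 to 0.18. The calls of OGG1 (0.30, edgeR adjusted p = 0.0170) and NEIL3 (0.33, edgeR adjusted p = 0.0310) did not hold under library size scaling alone (adjusted p = 0.150 and 0.168), under DESeq2 (0.130 and 0.134), or without 451Lu-R DMSO replicate 1 (0.0912 and 0.157). OGG1 was also not called without 1205Lu-R DMSO replicate 1 (0.0658) and NEIL3 without 1205Lu-R DMSO replicate 2 (0.126).

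NEIL1 was barely expressed. It had 10.9 and 5.00 estimated counts in the 451Lu-R DMSO libraries, 6.53 and 0 with corin, 1.39 and 1 in the 1205Lu-R DMSO libraries, and 5.74 and 0 with corin. The groups of each line overlapped or spanned 0, and the gene did not pass the filter on low counts in any comparison. Without that filter, NEIL1 was called lower in 1205Lu-R than in 451Lu-R with DMSO (log2 difference -2.82, edgeR adjusted p = 0.0181) and was not called for corin in 451Lu-R (-1.18, edgeR adjusted p = 0.199) or 1205Lu-R (1.46, edgeR adjusted p = 0.486). It also shares 1832 exonic bases with MAN2C1 on the opposite strand, so part of its few counts may not be its own.

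Per kilobase of exonic sequence, where levels of different genes can be set side by side, NTHL1 (7.91 ± 0.31 CPM per kb, SD, n = 2), UNG (7.68 ± 0.54), MBD4 (7.26 ± 0.24) and TDG (7.04 ± 0.42) formed the top of the order in 451Lu-R with DMSO, and their libraries overlapped between neighbours. NEIL2 (5.63), NEIL3 (3.40), SMUG1 (3.26), MUTYH (2.51), OGG1 (1.66) and NEIL1 (0.107 CPM per kb) followed, and the libraries of NEIL3 and SMUG1 overlapped. In 1205Lu-R with DMSO, UNG stood first with 14.7 ± 0.13 CPM per kb, before MBD4 (10.2), NEIL2 (9.74) and NTHL1 (7.59), and its libraries did not overlap those of MBD4. With corin, UNG fell to the ninth place in 451Lu-R (0.979 ± 0.118 CPM per kb) and to the seventh in 1205Lu-R (1.17 ± 0.15). Its treated libraries overlapped those of OGG1 in 451Lu-R and those of SMUG1 in 1205Lu-R, so these exact places are not resolved. NEIL2 then came first in 451Lu-R (8.89 ± 0.48) and MBD4 in 1205Lu-R (10.2 ± 1.3 CPM per kb). NEIL1 was last in every group. The order depends on the lengths. With canonical transcripts, UNG came before NTHL1 in 451Lu-R with DMSO (19.8 and 18.7 CPM per kb). NTHL1 came before MBD4 in treated 1205Lu-R (15.1 and 14.2), and UNG was eighth in treated 451Lu-R. In 451Lu-R with DMSO, OGG1 moved from rank 9 to rank 5 (8.89 CPM per kb), and NEIL2 from rank 5 to rank 8 (7.02). OGG1 has 8733 exonic bases but a canonical transcript of 1630.

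**Figure D1:**
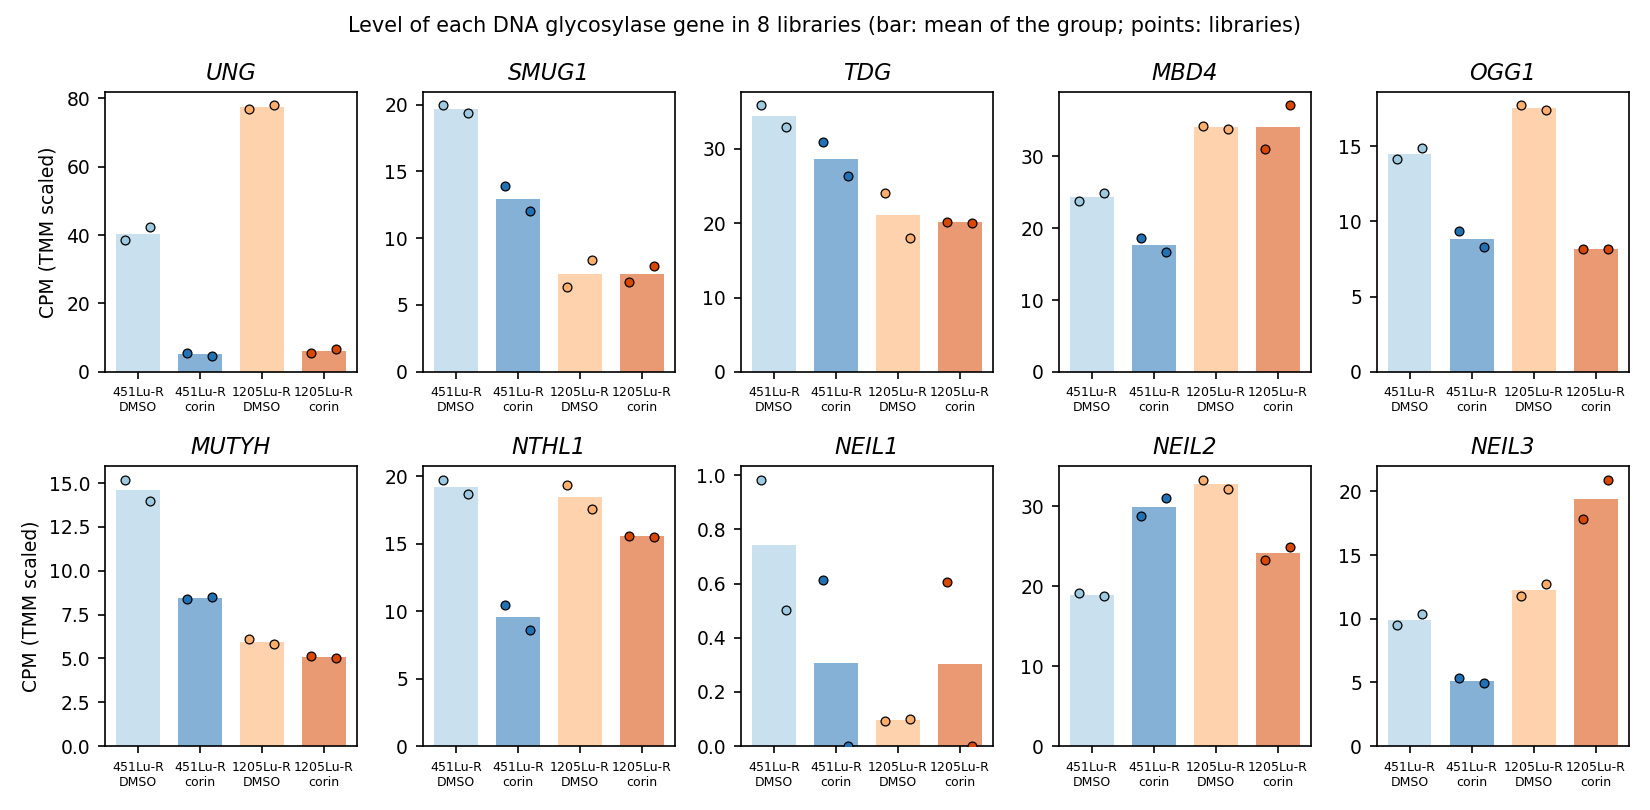
Level of each of the 10 DNA glycosylase genes in CPM (TMM scaled, vertical axis from 0, its own scale in each panel) in the 8 libraries; bars are group means and points are libraries. UNG drops from 38.5 to 42.5 CPM to 4.72 to 5.60 CPM in 451Lu-R and from 77.0 to 78.0 CPM to 5.64 to 6.72 CPM in 1205Lu-R, whereas NEIL2 and NEIL3 move in opposite directions in the lines.

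The first question was whether corin changed the expression of the glycosylase genes in 451Lu-R cells. Each of the 9 tested was called, as were most of all genes tested: 8 fell and 1, NEIL2, rose. The call of TDG did not hold under DESeq2 or with all 8 libraries in one fit (below). Over all genes tested in this line, 38.6% fell and 41.3% rose, and the median log2 fold change was -0.69 for the 9 genes and 0.03 for all genes. At a change of at least 2-fold, only UNG was lower (13.3% of all genes tested). NTHL1 fell just short of this limit, at 1.97-fold. The count was 2 without DMSO replicate 1, DMSO replicate 2 or corin replicate 1 of this line, and 3 with library size scaling alone. NEIL2 rose by 1.59-fold, short of that limit, which 22.2% of all genes passed upwards.

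In 1205Lu-R cells, 3 of the 9 genes fell (UNG, OGG1 and NEIL2), 1 rose (NEIL3) and 5 were not called. Here 37.8% of all genes tested fell and 40.4% rose, with a median log2 fold change of -0.19 for the 9 genes and 0.03 for all. UNG and OGG1 were lower by at least 2-fold (9.8% of all genes tested). NEIL3 rose by 1.64-fold, and 22% of all genes rose by at least 2-fold. OGG1 was close to this limit, and with library size scaling alone its log2 fold change was -0.98.

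UNG, the main remover of uracil from DNA, changed most of the 9 in both lines. In 451Lu-R it went from 38.5 and 42.5 CPM with DMSO to 5.60 and 4.72 CPM with corin, which rested on 46 to 64 counts per treated library. The fall was 7.67-fold, a log2 fold change of -2.94 ± 0.12 (SE, edgeR adjusted p = 9.48e-15). In 1205Lu-R it went from 77.0 and 78.0 CPM to 5.64 and 6.72 CPM, a 12.0-fold fall (log2 fold change -3.59 ± 0.09, edgeR adjusted p = 3.38e-19). In both lines every treated library lay far below every control library. With DMSO the level was 1.95-fold higher in 1205Lu-R, and with corin the UNG levels of the lines were 5.16 ± 0.62 and 6.18 ± 0.76 CPM (SD, n = 2), with ranges that nearly touched (4.72 to 5.60 and 5.64 to 6.72 CPM). The fall was larger in 1205Lu-R by 0.69 ± 0.18 on the log2 scale (interaction test, edgeR adjusted p = 0.00358), a call that was lost without 451Lu-R corin replicate 1 (difference -0.53, adjusted p = 0.0924). The gene makes a nuclear and a mitochondrial form of the enzyme from different first exons, which counts per gene do not separate. Its processed pseudogenes UNGP1 and UNGP3 had 4 and 1 counts over the 8 libraries.

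SMUG1, the second uracil remover, was at 19.4 and 19.9 CPM with DMSO and 12.0 and 13.9 CPM with corin in 451Lu-R (log2 fold change -0.58 ± 0.11, edgeR adjusted p = 8.63e-05). In 1205Lu-R the libraries overlapped, with 6.32 and 8.35 CPM with DMSO and 6.75 and 7.93 CPM with corin (0.06, interval -0.30 to 0.42). MBD4 went from 23.8 and 24.9 CPM to 16.7 and 18.6 CPM in 451Lu-R (-0.44 ± 0.10, edgeR adjusted p = 0.000344). In 1205Lu-R it had 33.8 and 34.3 CPM with DMSO, and the corin libraries lay on either side, at 31.0 and 37.1 CPM (0.06, interval -0.12 to 0.23). TDG showed the smallest change in 451Lu-R, from 32.9 and 35.9 CPM to 26.4 and 30.9 CPM (-0.24 ± 0.08, edgeR adjusted p = 0.0137). That call did not hold without 451Lu-R DMSO replicate 1 (-0.19, adjusted p = 0.0754), without 451Lu-R corin replicate 2 (-0.14, adjusted p = 0.202), under DESeq2 (adjusted p = 0.180) or with all 8 libraries in one fit (adjusted p = 0.0524). In 1205Lu-R, TDG with corin (20.1 and 20.1 CPM) lay within the spread of the DMSO libraries (18.1 and 24.0 CPM), with a log2 fold change of -0.02 and an interval of -0.26 to 0.22. It was the gene with the widest spread between DMSO replicates of 1205Lu-R in CPM. SMUG1 shares 179 exonic bases with FLJ12825 and MBD4 shares 279 with IFT122, both on the opposite strand. The limit on shared reads given for OGG1 below holds for SMUG1 and MBD4 too.

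OGG1, which removes 8-oxoguanine, was lower with corin in both lines. It went from 14.1 and 14.9 CPM to 8.31 and 9.36 CPM in 451Lu-R (log2 fold change -0.69 ± 0.13, edgeR adjusted p = 7.84e-05). In 1205Lu-R it went from 17.4 and 17.7 CPM to 8.16 and 8.18 CPM (-1.05 ± 0.13, edgeR adjusted p = 1.20e-07). The groups did not overlap in either line, and the difference between the responses was -0.40 with an interval of -0.77 to -0.03 (edgeR adjusted p = 0.0657, not called). OGG1 shares 2175 exonic bases with CAMK1 and 356 with TADA3, both on the opposite strand, and the strand setting of the quantification is not given in the sources used here, so reads from these bases may be divided between the genes.

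MUTYH, whose enzyme removes adenine opposite 8-oxoguanine, fell in 451Lu-R from 14.0 and 15.2 CPM to 8.40 and 8.51 CPM (-0.77 ± 0.13, edgeR adjusted p = 2.13e-05). In 1205Lu-R it was low throughout, at 5.80 and 6.13 CPM with DMSO and 5.00 and 5.14 CPM with corin (-0.19, interval -0.58 to 0.20). It shares 491 exonic bases with TOE1 on the opposite strand and 1838 with an unnamed gene model on its own strand, to which 17.6 counts were given over the 8 libraries. NTHL1, an enzyme for oxidised pyrimidines, fell in 451Lu-R from 18.7 and 19.8 CPM to 8.61 and 10.5 CPM (-0.98 ± 0.12, edgeR adjusted p = 4.14e-07). In 1205Lu-R the corin libraries (15.5 and 15.6 CPM) lay below the DMSO libraries (17.6 and 19.3 CPM), but the log2 fold change of -0.20 was not called (interval -0.42 to 0.03, edgeR adjusted p = 0.100). Without 1205Lu-R DMSO replicate 2 it was -0.28 and called (adjusted p = 0.0413).

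NEIL2 and NEIL3, enzymes that act on oxidised bases in single-stranded and other open DNA, responded in opposite directions in the lines, and in opposite directions to each other. NEIL2 rose in 451Lu-R from 18.8 and 19.1 CPM to 28.8 and 31.1 CPM (0.67 ± 0.09, edgeR adjusted p = 8.62e-07) and fell in 1205Lu-R from 32.2 and 33.4 CPM to 23.4 and 25.0 CPM (-0.39 ± 0.08, edgeR adjusted p = 0.000210). The order of the lines was thus reversed by treatment: NEIL2 was higher in 1205Lu-R with DMSO, and with corin both 451Lu-R libraries lay above both 1205Lu-R libraries. NEIL3 fell in 451Lu-R from 9.48 and 10.3 CPM to 4.92 and 5.34 CPM (-0.92 ± 0.17, edgeR adjusted p = 4.21e-05) and rose in 1205Lu-R from 11.8 and 12.8 CPM to 17.8 and 20.9 CPM (0.72 ± 0.12, edgeR adjusted p = 1.22e-05). No group overlapped its control, which in 1205Lu-R was also so for NTHL1 and MUTYH, genes that were not called. All 4 changes kept direction and call in each alternative scaling, filter, tool and left-out library.

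The interaction test asked whether the response to corin differed between the lines (1205Lu-R minus 451Lu-R). Of the 9 genes, 5 had a positive difference and 2 a negative one, where 22.6% and 27.1% of all genes tested did. NEIL3 differed most (1.60 ± 0.20, edgeR adjusted p = 7.66e-07), then NEIL2 (-1.10 ± 0.12, edgeR adjusted p = 7.48e-08), NTHL1 (0.75 ± 0.16, edgeR adjusted p = 0.000560) and UNG (given above). NEIL3, NEIL2 and NTHL1 kept direction and call in each alternative scaling, filter, tool and left-out library. The differences of SMUG1 (0.60, edgeR adjusted p = 0.0207), MUTYH (0.55, edgeR adjusted p = 0.0461) and MBD4 (0.46, edgeR adjusted p = 0.00652) depended on single libraries. MBD4 was not called without 1205Lu-R corin replicate 2 (0.33, adjusted p = 0.0617). SMUG1 was not called under DESeq2 (adjusted p = 0.0980), nor without 451Lu-R DMSO replicate 1 (0.0518), 451Lu-R corin replicate 2 (0.0583), 1205Lu-R DMSO replicate 1 (0.142) or 1205Lu-R corin replicate 2 (0.114). MUTYH was not called under DESeq2 (0.211), without a filter on low counts (0.0715), or without any 1 library other than 451Lu-R DMSO replicate 2 (adjusted p from 0.0588 to 0.125). TDG did not differ beyond its error (0.18, interval -0.14 to 0.51), and was called with library size scaling alone (0.40, adjusted p = 0.0336) or without 1205Lu-R DMSO replicate 1 (0.40, adjusted p = 0.0400). Scaling by library size alone moved the median difference of all genes by 0.208 and the share of positive differences among all called genes from 45.4% to 64%.

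**Figure D2:**
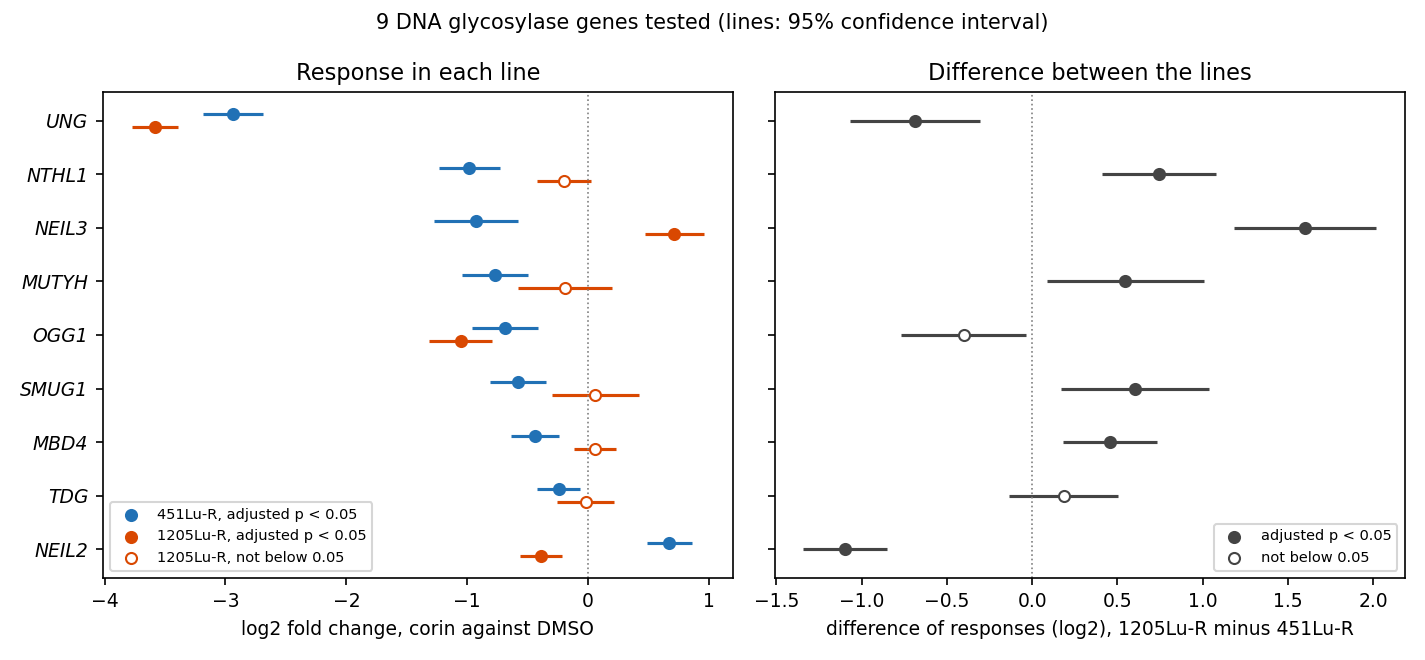
Left, log2 fold change of corin against DMSO for the 9 DNA glycosylase genes tested in 451Lu-R and 1205Lu-R; right, difference of the responses (1205Lu-R minus 451Lu-R). Points are edgeR estimates, lines their 95% confidence intervals, and open points have an adjusted p not below 0.05; UNG lies at -2.94 and -3.59, and NEIL3 and NEIL2 are the genes whose responses have opposite signs and are called in both lines.

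The summed level of the 10 genes per kilobase was lower with corin in both lines. In 451Lu-R it went from 46.5 and 46.4 CPM per kb down to 32.6 and 30.1, and in 1205Lu-R from 55.8 and 54.2 CPM per kb down to 36.9 and 40.6. UNG supplied 15.7% and 17.4% of the sum in the 451Lu-R DMSO libraries, against 3.26% and 2.97% after corin. Its share of the sum in 1205Lu-R was 26.2% and 27.3% before and 2.90% and 3.14% after treatment. The 6 genes for oxidised bases and their partners (OGG1, MUTYH, NTHL1 and the NEIL genes) went from 46.1% and 45.2% to 53.2% and 56.0% of the sum in 451Lu-R and, in 1205Lu-R, from 44.8% and 44.7% to 57.9% and 56.2%, the rest being UNG, SMUG1, TDG and MBD4. The summed level of these 6 genes was itself lower with corin, at 17.3 and 16.9 against 21.4 and 21.0 CPM per kb in 451Lu-R and at 21.4 and 22.8 against 25.0 and 24.2 CPM per kb in 1205Lu-R. NEIL2 went from 12.2% and 12.0% to 26.3% and 30.6% in 451Lu-R. Its share in 1205Lu-R was 17.8% and 17.7% before and 18.8% and 18.3% after corin. These are sums of RNA levels, and they change with the lengths used: with the length of the canonical transcript, UNG had a mean share of 20.7% before and 4.43% after corin in 451Lu-R, and of 34.1% before and 4.52% after it in 1205Lu-R.

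**Figure D3:**
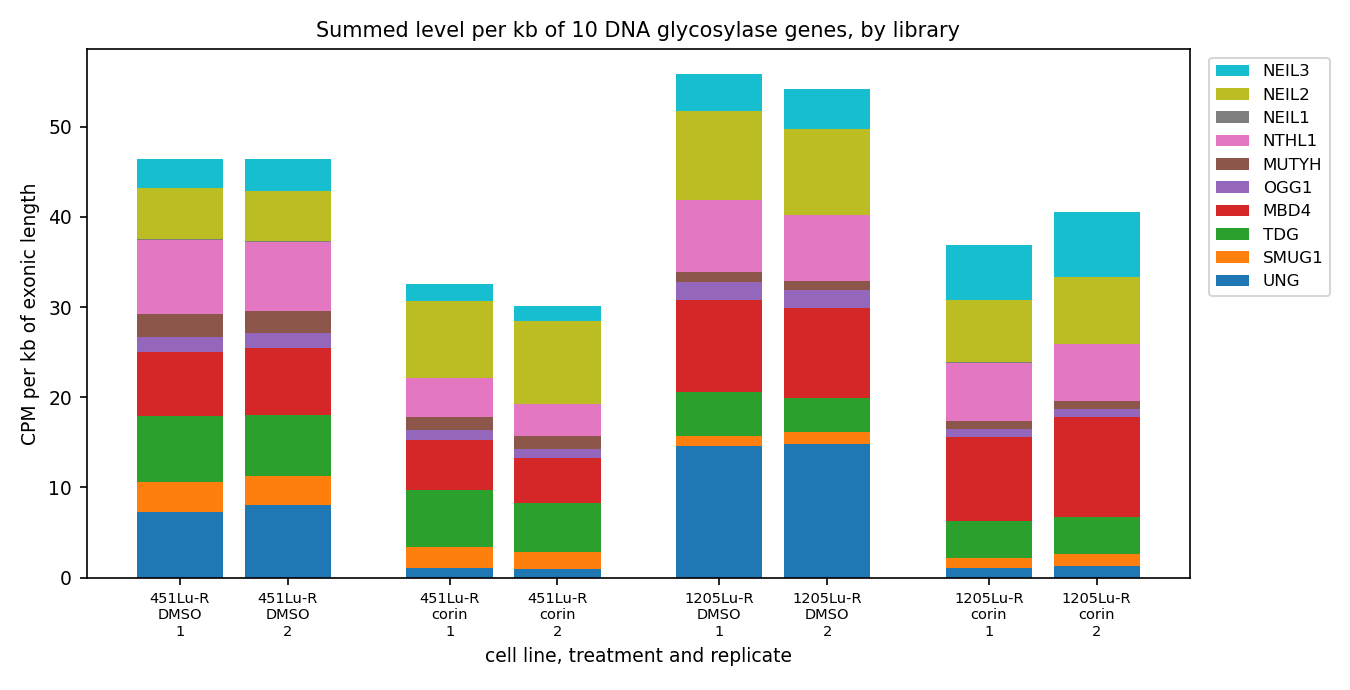
Summed level of the 10 DNA glycosylase genes in CPM per kb of exonic length (vertical axis, from 0) in each of the 8 libraries (horizontal axis: line, treatment and replicate), with 1 colour per gene. The sum is 46.5 and 46.4 CPM per kb in the 451Lu-R DMSO libraries and 32.6 and 30.1 with corin, and the UNG part at the base of each bar is the one that shrinks most in both lines.

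MPG, the glycosylase for alkylated purines, was not among the 10 genes. It rose in 1205Lu-R (log2 fold change 0.44, edgeR adjusted p = 3.05e-07) and had a value of 0.10 in 451Lu-R that was not called (edgeR adjusted p = 0.166).

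The later steps of base excision repair were counted over lists of named genes. For comparison, 38.6% of all genes tested fell and 41.3% rose in 451Lu-R, and 37.8% fell and 40.4% rose in 1205Lu-R. Of 6 genes for abasic sites and blocked ends, 4 fell and 2 rose in 451Lu-R and 4 fell and 1 rose in 1205Lu-R. APEX1, the main endonuclease for the abasic sites that glycosylases leave, fell by 0.99 and by 0.64 on the log2 scale (edgeR adjusted p = 1.81e-14 and 4.42e-12), and TDP1, which clears blocked 3′ ends, fell by 2.13 and by 1.30 (5.46e-09 and 2.15e-05). APEX2 and APTX fell in both lines too, and APLF, a scaffold for end joining, rose in both (0.56 and 0.91). Of the 4 genes for short-patch gap filling, XRCC1 and its partner ligase LIG3 fell in both lines (XRCC1 -1.25 and -1.26, LIG3 -1.03 and -0.85), POLB, the gap-filling polymerase, rose in both (0.85 and 0.57, edgeR adjusted p = 1.16e-08 and 0.000124), and POLL was not called. Of the 16 genes for long-patch synthesis, 12 fell in 451Lu-R and the other 4 were not called, and 13 fell and 1 rose in 1205Lu-R. POLE3, a subunit of DNA polymerase epsilon, fell by 1.80 and by 1.31, and POLD2, a subunit of DNA polymerase delta, by 0.68 and by 0.89. PCNA, the sliding clamp, fell in 1205Lu-R (-0.59) but was not called in the other line (0.02).

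Of the 6 genes that sense breaks and turn over ADP-ribose, PARP2 and PARP3 fell in both lines (PARP2 -1.06 and -1.04, PARP3 -2.02 and -1.72) and HPF1, the partner that directs PARP1 to serine, rose in both (1.28 and 0.80). PARP1, the most abundant sensor, rose by 0.14 in 451Lu-R (edgeR adjusted p = 6.32e-05), while its value of -0.02 in 1205Lu-R was not called.

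Genes whose products make or remove the substrates of glycosylases were read in the same fits. DUT, which breaks down dUTP before uracil enters DNA, fell in both lines as UNG did, with log2 fold changes of -1.48 and -1.03 (edgeR adjusted p = 2.34e-15 and 6.36e-15). NUDT1, which removes oxidised purine nucleotides, fell by 1.12 and by 0.39 (1.49e-08 and 5.47e-05), and SAMHD1, which degrades deoxynucleotides, rose from 19.1 to 110 CPM and from 6.24 to 35.2 CPM (log2 fold change 2.56 and 2.54). Of the cytosine deaminases, whose product is uracil, APOBEC3B fell in 451Lu-R (-1.10, edgeR adjusted p = 4.73e-11) and rose in 1205Lu-R (0.38, edgeR adjusted p = 2.81e-05), and APOBEC3C did likewise (-1.12 and 0.20). APOBEC3F and APOBEC3G went against these in 451Lu-R, where both rose (0.61 and 0.58, edgeR adjusted p = 0.00383 and 0.000511), and APOBEC3D fell in 1205Lu-R (-0.81, edgeR adjusted p = 0.00916). Of the 4 deaminase genes tested in each line, 2 rose and 2 fell in 451Lu-R, whereas 2 rose and 1 fell in 1205Lu-R. TET2, one of the oxidases that make substrates of TDG from 5-methylcytosine, fell in both lines (-0.89 and -1.42), TET3 fell in 451Lu-R (-0.22) but rose in 1205Lu-R (0.42), and TET1 was called in neither.

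Cell cycle markers moved with corin in the same libraries. Of 41 S phase markers, 35 fell in 451Lu-R and the other 6 were not called (median log2 fold change -0.91), and 38 fell and 1 rose in 1205Lu-R (median -0.91). Their summed level went from 2886 and 2900 CPM to 1622 and 1593 CPM in 451Lu-R, and from 4252 and 4242 CPM to 2502 and 2506 CPM in 1205Lu-R. MCM5, a subunit of the replicative helicase, fell by 1.76 and by 2.93 on the log2 scale. Of 52 G2/M markers, 47 fell and 4 rose in 451Lu-R (median -1.25), whereas 34 fell and 14 rose in 1205Lu-R (median -0.36). The interaction was positive and called for 47 of the 52, against 22.6% of all genes tested. The G2/M sum went from 5356 and 5403 CPM to 2823 and 2817 CPM in 451Lu-R and from 8873 and 8969 CPM to 8299 and 8392 CPM in 1205Lu-R. CENPF, a kinetochore protein of G2/M cells, had a log2 fold change of -2.45 in 451Lu-R cells and of -0.45 in 1205Lu-R cells. The S phase markers PCNA, FEN1, RFC2 and POLD3 are also in the long-patch list above. UNG fell in both lines, as most S phase markers did. NEIL3 fell in 451Lu-R and rose in 1205Lu-R, while most G2/M markers fell in both lines. The part of cell cycle state in the values of the glycosylase genes was not tested.

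**Figure D4:**
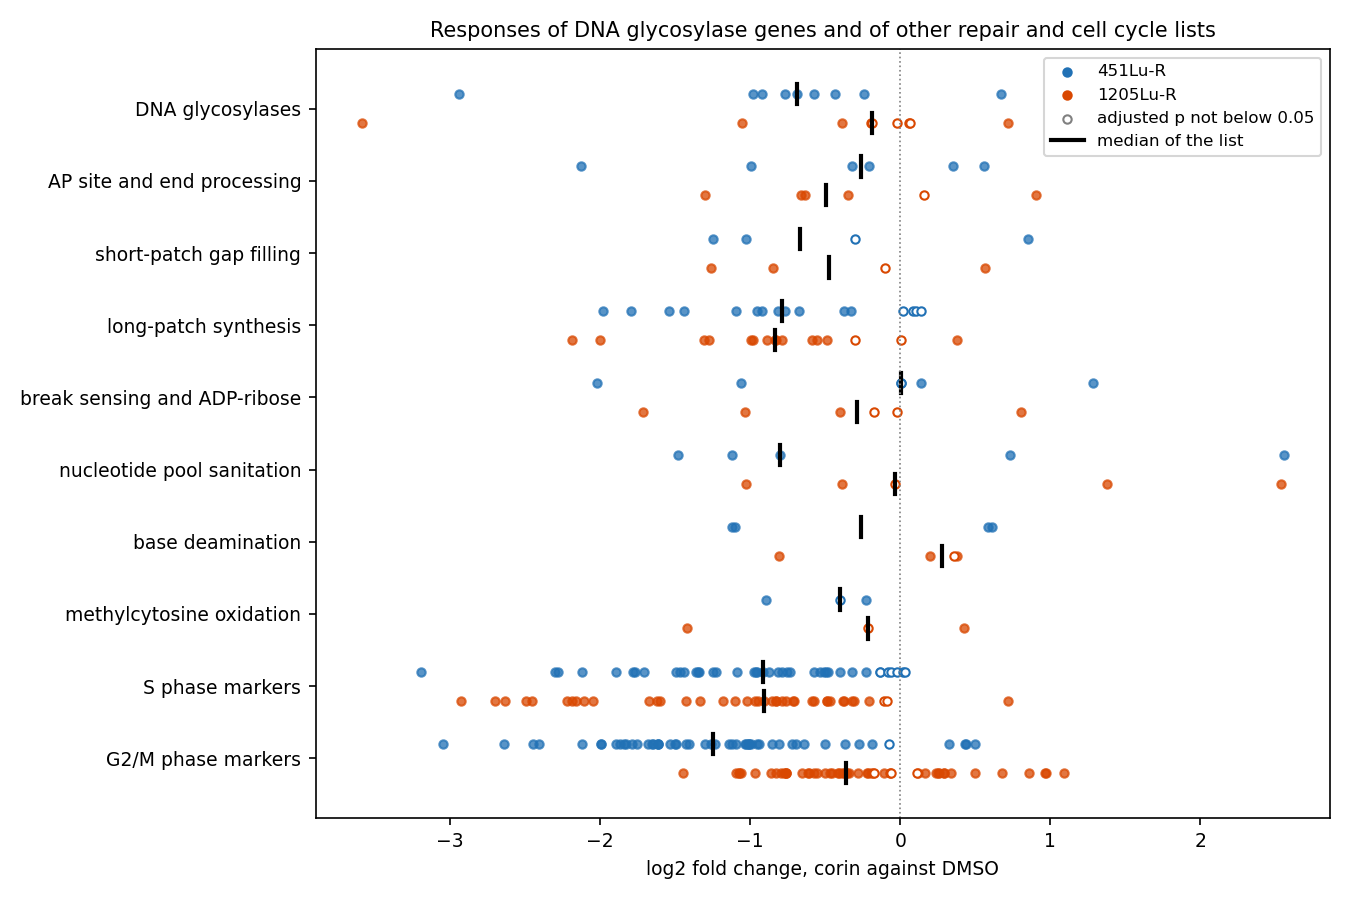
Log2 fold change of corin against DMSO (horizontal axis) for the tested genes of the DNA glycosylase list and of 9 further repair and cell cycle lists, in 451Lu-R and 1205Lu-R; each point is a gene, open points have an adjusted p not below 0.05 and vertical bars are list medians. The median of the glycosylases is -0.69 in 451Lu-R and -0.19 in 1205Lu-R, that of the S phase markers -0.91 in both, and UNG is the leftmost glycosylase in each line.

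UNG and OGG1 had the largest mean change of the 9 genes over both lines, so the genes with the most similar profiles to these were listed, by the root mean square difference of centred log2(CPM + 0.5) over the 8 libraries among 14424 genes. For UNG the nearest was an unnamed gene model (ENSG00000262633, difference 0.21) that had 3.19 and 4.92 CPM with DMSO in 451Lu-R and 1205Lu-R and no counts in any corin library. Its edgeR log2 fold changes were -8.07 and -8.68, against -2.94 and -3.59 for UNG. The 0.5 added to CPM limits how far a gene at 0 can fall in this measure. KCTD15 (0.22), JADE2 (0.27), CDC25A (0.29) and MOK (0.35) followed. CDC25A, the phosphatase that activates cyclin-dependent kinases at the start of S phase, went from 27.0 to 3.77 CPM in 451Lu-R and from 39.0 to 5.32 CPM in 1205Lu-R. KCTD15 went from 67.2 to 6.23 CPM and from 106 to 10.3 CPM, a profile that like that of UNG started higher in 1205Lu-R and ended low in both. For OGG1 the nearest were PSMB2 (0.07), SLC4A1AP (0.07), COX20 (0.07), METTL3 (0.07) and BAP1 (0.07), with METTL3 at 22.5 and 13.5 CPM in 451Lu-R and 27.0 and 13.4 CPM in 1205Lu-R with DMSO and corin.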

How the data were processed

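Poly(A) RNA of the 8 libraries was sequenced as paired ends on an Illumina NextSeq. According to the labels and methods, the authors removed adapters and poor bases with Trimmomatic, ran salmon on the GENCODE 32 transcriptome, and deposited its estimated counts, summed per gene and not normalized. Tool versions and the strand setting are not given in the sources used here. Deposited tables for the PLX4032 libraries hold comparisons made by the authors (log2 fold change, adjusted p) and were not used.

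Gene names, exonic lengths and overlaps came from GENCODE 44, which matched 34052 of 34228 genes. Counts were rounded and tested in R 4.3.3 with edgeR 4.0.16 (filterByExpr, TMM, glmQLFit, glmQLFTest, 2-sided, Benjamini-Hochberg over all genes tested), by treatment within each line (14530 and 14563 genes) and, over 8 libraries, by line, treatment and interaction (16062 genes). A gene was called at an adjusted p under 0.05, and intervals are at 95%. CPM used TMM factors over the 8 libraries (0.959 to 1.045).

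Named were the 10 glycosylases, the repair lists (of the long-patch list, genes with the lowest adjusted p and PCNA, added after its values were seen), up to 3 genes per cell cycle list, and the 5 genes nearest to the 2 glycosylases that changed most. Mismatch repair genes are not reported here. Members and lists were chosen with earlier results of these data known. Alternatives were DESeq2 1.42.0, scaling by RLE or by library size only, filters of none or 1 CPM on average, the replicate number as a block, a single fit over the 8 libraries, the limits of the study (4-fold, adjusted p under 0.001), each library left out and, added after the data were seen, canonical transcript lengths for levels per kilobase. A group left with 1 library is taken to vary like the others. In simulated counts for 451Lu-R, 49 of 66 genes changed 1.5-fold and 57 of 67 changed 2-fold were called, and 44 of 66 and 61 of 64 in those for 1205Lu-R. The simulation changed only a small part of the genes and gave all genes the same dispersion, so its rates need not be those of the data.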

Additional observations from a re-analysis of the deposited data

Results flagged for a closer look

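For 7 glycosylase genes the response to corin differed between the cell lines by the interaction test of edgeR, adjusted over all genes tested. In that test 22.6% of all genes had a positive difference and 27.1% a negative one. On the log2 scale and as 1205Lu-R minus 451Lu-R, the difference was 1.60 for NEIL3 and -1.10 for NEIL2, whose responses had opposite signs in the lines. It was 0.75 for NTHL1, 0.60 for SMUG1, 0.55 for MUTYH and 0.46 for MBD4, each called lower in 451Lu-R and not called in 1205Lu-R. It was -0.69 for UNG, which fell in both lines and fell further in 1205Lu-R. The calls of NEIL3, NEIL2 and NTHL1 held in every alternative and left-out library, and those of UNG, SMUG1, MUTYH and MBD4 did not hold in all of them.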

How the results depend on the processing

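Of 450 comparisons of a single glycosylase with an alternative, 409 kept direction and call, 30 lost the call, 3 gained it and 8 changed sign, all 8 of them values that were not called. In 1205Lu-R, leaving out a library gave SMUG1 from -0.14 to 0.25 (negative without DMSO replicate 1 and, at -0.071, without corin replicate 2), TDG from -0.23 to 0.19 (positive without DMSO replicate 1) and MBD4 from -0.089 to 0.17 (negative without corin replicate 2), and library size only gave TDG 0.055. The difference of TDG between the lines ran from -0.022 (without 1205Lu-R DMSO replicate 2) to 0.40, and that of NTHL1 with DMSO from -0.11 to 0.043 (positive without 451Lu-R DMSO replicate 1 or 1205Lu-R DMSO replicate 2). With a 4-fold change and an adjusted p under 0.001, 0 glycosylases rose, none having risen by 2-fold, and 1 (UNG) fell in each line, among 1803 rising and 395 falling genes in 451Lu-R, and 1650 rising and 208 falling ones in 1205Lu-R. With library size only, 3 fell by at least 2-fold in 451Lu-R (UNG, NTHL1 and NEIL3) and 1 in 1205Lu-R (UNG). Leaving out 1 library gave 1 to 2 in 451Lu-R (2 without DMSO replicate 1, DMSO replicate 2 or corin replicate 1), 2 to 5 positive and 1 to 2 negative differences between the lines, and 3 to 5 genes higher in 1205Lu-R with DMSO. DESeq2 gave 3 positive differences and 3 genes higher in 1205Lu-R with DMSO, as did library size only for the latter. With canonical lengths, the mean share of UNG was 20.7% before and 4.43% after corin in 451Lu-R, and 34.1% before and 4.52% after it in 1205Lu-R. Libraries that share a replicate number did not deviate together (r = -0.0117 for 451Lu-R, r = -0.00584 for 1205Lu-R). Because replicates differed by little more than counting error, these values cannot tell whether the numbers pair the libraries. With the replicate block, 8 glycosylases fell and 1 rose in 451Lu-R, 3 fell and 1 rose in 1205Lu-R, and 4 positive and 2 negative differences were called, since MUTYH was no longer called (0.55, adjusted p = 0.0508). The causes of these shifts were not tested. With 2 libraries a group, changes can be missed: of simulated differences between the lines, 36 of 64 at 1.5-fold, 48 of 63 at 2-fold and 60 of 66 at 4-fold were called. Few genes were changed in the simulation, unlike in the data, so the rates in the data can differ.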
